A study of Mus musculus with 28 samples.

Results

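Liver zonation genes mark where a hepatocyte sits in the liver lobule, and 10 of them were examined here together with Cdh1, which encodes E-cadherin, counted among the 10. Blood enters the lobule at the portal tract and leaves at the central vein, and hepatocytes along this path divide the work. Periportal cells carry out much of the gluconeogenesis, amino acid breakdown and urea synthesis, while the cells around the central vein make glutamine from the ammonia that is left, under Wnt signals from central vein endothelium. The genes were chosen with earlier results of these arrays known: Cdh1, Hal, Sds, Gls2 and Pck1 as periportal genes, and Glul, Slc1a2, Oat, Rhbg and Lgr5 as pericentral genes. Cdh1 was chosen because it differed between ages in liver, so the liver values of the 10 genes are given as a description and without a test.

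RNA of liver, quadriceps (a thigh muscle), heart and gastrocnemius (a calf muscle) was measured in female C57BL/6J mice aged 24 months (103 weeks) or 6 months (24 weeks). All mice ate standard chow, were housed in groups, carried no stated transgene or allele and were fasted overnight before they were killed, so the values describe the fasted state at both ages. Liver and quadriceps had 3 arrays per age on one Affymetrix array type, and heart and gastrocnemius had 4 per age on another, 28 samples in all. Nothing in the labels ties each array to an animal of its own, so a p-value here reflects only how much these samples varied, which may be technical.

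Of the 10 genes, 8 had a probe set of their own among the 19928 genes of the liver and quadriceps table: 3 periportal (Cdh1, Hal and Pck1) and all 5 pericentral genes. Sds and Gls2, which break down serine and glutamine, were not analysed here, since no probe set was paired with them in the annotation used. In the heart and gastrocnemius table of 30063 genes, 6 of the 10 were measured, and Glul and Rhbg were left out because their probe sets carry several gene symbols. Values are given on the log2 scale, where 1 unit is a doubling, and levels of different genes are not compared because their probes differ. The mean of 5 hepatocyte markers lay between 13.54 and 13.58 in 24-month liver and between 13.52 and 13.53 in 6-month liver. In quadriceps it lay at 8.88 in 24-month replicate 1, between 6.64 and 7.01 on the other 24-month arrays and between 7.31 and 7.68 at 6 months. In heart it lay between 5.47 and 5.73 at 24 months and between 5.85 and 6.76 at 6 months. In gastrocnemius it lay between 5.11 and 5.26 at 24 months and between 5.09 and 5.29 at 6 months. The mean of 4 skeletal muscle markers was at least 13.58 on every quadriceps array and 13.16 on every gastrocnemius array, and the mean of 4 heart markers was at least 11.64 on every heart array.

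The RefSeq promoter table (GRCm38.p6, 250 bases before to 50 after a start site) held 5 of the 10 genes: Glul, Slc1a2, Pck1, Oat and Hal. They were searched on both strands for CTTTGA, the core that TCF factors of the Wnt pathway bind, and for ACGTCA, the core of the cAMP response element through which fasting signals reach the Pck1 promoter. The 3 promoters with a match are shown because they set a pericentral gene beside a pair of periportal ones. Capitals mark the matches, and no matches overlap.
Slc1a2: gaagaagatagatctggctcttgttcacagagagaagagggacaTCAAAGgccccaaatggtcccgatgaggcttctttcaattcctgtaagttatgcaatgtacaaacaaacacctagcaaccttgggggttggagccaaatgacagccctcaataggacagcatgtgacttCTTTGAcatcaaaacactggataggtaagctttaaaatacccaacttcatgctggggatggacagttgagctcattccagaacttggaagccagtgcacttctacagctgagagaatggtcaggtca
Hal: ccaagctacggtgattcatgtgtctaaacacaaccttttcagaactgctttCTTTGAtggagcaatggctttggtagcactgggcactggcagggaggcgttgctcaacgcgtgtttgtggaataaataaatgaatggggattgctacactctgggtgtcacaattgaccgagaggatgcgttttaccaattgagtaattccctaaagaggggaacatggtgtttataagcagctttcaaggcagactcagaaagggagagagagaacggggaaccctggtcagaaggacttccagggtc
Pck1: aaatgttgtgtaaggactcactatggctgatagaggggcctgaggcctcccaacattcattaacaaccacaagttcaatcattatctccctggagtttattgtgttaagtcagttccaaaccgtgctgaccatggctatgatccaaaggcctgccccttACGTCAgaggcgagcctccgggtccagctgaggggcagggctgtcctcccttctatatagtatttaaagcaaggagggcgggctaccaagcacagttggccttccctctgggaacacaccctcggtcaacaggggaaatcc
The windows lie at chr2:102706188-102706487 for Slc1a2, chr10:93488518-93488817 for Hal and chr2:173152823-173153122 for Pck1, all on the plus strand. The Slc1a2 window lies inside the span that RefSeq gives the gene, so longer transcripts start upstream of it. Slc1a2 held the TCF core on the plus strand 77 bases before the start and on the minus strand from 206 bases before it, and Hal held it 199 bases before the start. Pck1 held ACGTCA 91 bases before its start. The TCF core was present in 16.0% of all 32851 promoters and ACGTCA in 7.51%, so the matches describe these letters and do not show that a factor binds.

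In liver, Cdh1 was lower at 24 months on every array, whereas the other 7 measured zonation genes differed by 0.25 or less on the log2 scale. E-cadherin joins epithelial cells to each other, and in mouse liver its protein is found mainly on periportal hepatocytes and on bile ducts. Cdh1 stood at 7.65, 7.32 and 7.30 on the 24-month arrays, against 8.29, 8.87 and 8.77 on the 6-month arrays. The ages did not overlap, and the highest 24-month array lay below the lowest 6-month array. The means were 7.42 ± 0.20 at 24 months and 8.64 ± 0.31 at 6 months (SD, n = 3 each), a log2 difference of -1.22 (SE 0.16), or 2.33-fold lower. This was the seventh lowest difference among all 19928 genes in this tissue. With each array left out in turn it ran between -1.40 and -1.11.

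**Figure D1:**
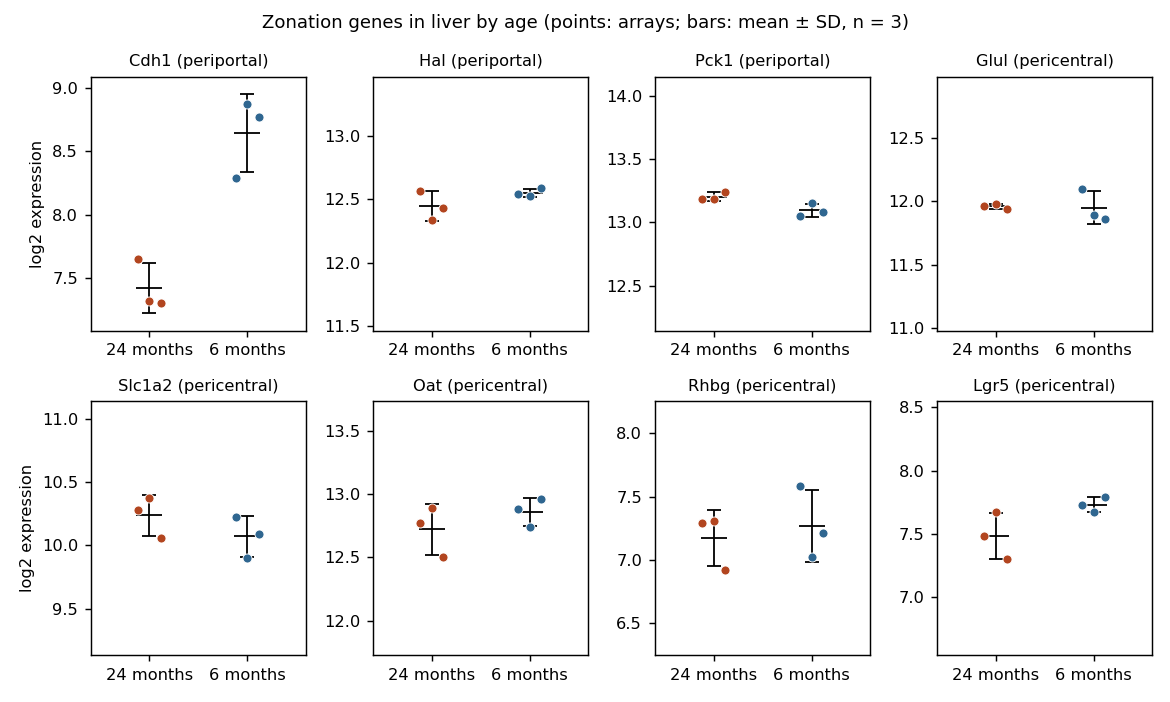
Log2 expression of the 8 measured zonation genes in liver, with 24 months on the left and 6 months on the right of each panel. Points are arrays, bars are the mean ± SD (n = 3), and every panel spans 2 log2 units. Cdh1 lies between 7.30 and 7.65 at 24 months and between 8.29 and 8.87 at 6 months, and the other genes differ little.

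The other periportal genes moved little and in opposite directions. Hal, the histidine ammonia-lyase that starts histidine breakdown, stood at 12.57, 12.34 and 12.43 at 24 months, against 12.54, 12.53 and 12.59 at 6 months (difference -0.11, SE 0.085). The arrays of the ages overlapped for Hal. Pck1, the cytosolic phosphoenolpyruvate carboxykinase of gluconeogenesis, stood at 13.18, 13.18 and 13.24 at 24 months, against 13.05, 13.15 and 13.08 at 6 months (difference 0.11, SE 0.075). The Pck1 arrays did not overlap, with the 24-month arrays above, but the difference was -0.01 when each array was centred on its median, so its direction depends on the scaling.

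Among the pericentral genes, those of ammonia and glutamate handling differed little and in both directions. Glul, the glutamine synthetase confined to the last cells before the central vein, stood at 11.96, 11.98 and 11.94 at 24 months, against 12.10, 11.89 and 11.86 at 6 months (difference 0.01, SE 0.09). A second Glul probe set read 11.21, 11.26 and 11.16 at 24 months, against 11.47, 11.24 and 11.18 at 6 months (difference -0.09), and both overlapped between ages. The Glul difference was -0.10 with arrays centred on their median, so its sign depends on the scaling. Slc1a2, the glutamate transporter also known as GLT-1, stood at 10.28, 10.37 and 10.06 at 24 months, against 10.22, 9.90 and 10.09 at 6 months (difference 0.17, SE 0.11). Oat, the ornithine aminotransferase, stood at 12.77, 12.89 and 12.50 at 24 months, against 12.88, 12.74 and 12.96 at 6 months (difference -0.14, SE 0.11). The arrays of the ages overlapped for both Slc1a2 and Oat, and the lowest 24-month array was replicate 3 in each.

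Rhbg and Lgr5 had lower means at 24 months, with ages that overlapped. Rhbg, an ammonium transporter of the Rhesus family, stood at 7.29, 7.31 and 6.92 at 24 months, against 7.58, 7.02 and 7.21 at 6 months (difference -0.10, SE 0.16). Its spread within each age was wider than the difference between ages. Lgr5, the R-spondin receptor that marks Wnt-active cells near the central vein, stood at 7.48, 7.67 and 7.30 at 24 months, against 7.73, 7.67 and 7.79 at 6 months (difference -0.25, SE 0.10). Lgr5 thus had the largest difference after Cdh1, with 1 array of each age at the same value of 7.67.

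By the limma threshold used across all genes (Benjamini-Hochberg adjusted p under 0.05), 1 of the 8 genes, Cdh1, was called in liver, and the background was 0.326% of all genes. Because Cdh1 was chosen on this contrast, nothing is read from that count. The call also changed with the setting, and nothing is read from that either. Cdh1 was not called after quantile normalization, with every probe set tested or with the replicate number as a block. It was also not called without any one of 24-month replicates 1 and 2 and 6-month replicates 2 and 3. Its difference kept its sign throughout. The arrays of the ages did not overlap for 2 of the 8 genes, Cdh1 and Pck1, while 36.1% of all 19928 liver genes had ages that did not overlap. The age difference in liver also followed expression level: with genes parted into 10 equal classes by level, the median difference was 0.18 in class 4, -0.14 in class 8, which holds Cdh1, and -0.08 in class 10, which holds Hal, Pck1, Glul, Slc1a2 and Oat. The liver arrays as a whole also differed between ages. Their interquartile ranges were 2.43, 2.49 and 2.66 at 24 months, against 2.75, 2.79 and 2.79 at 6 months. Their medians were 6.62, 6.60 and 6.54 at 24 months, against 6.48, 6.47 and 6.47 at 6 months. The part of this trend and of these array differences in the values above was not tested.

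To describe the balance of the lobule's ends, each gene was centred on its 6-month mean and the pericentral mean was subtracted from the periportal mean on each array. It came to -0.28, -0.55 and -0.21 at 24 months, against -0.26, 0.22 and 0.04 at 6 months, so that 6-month replicate 1 lay among the 24-month arrays. The difference of the means was -0.35 with Cdh1 and 0.06 without it. Without Cdh1 the values were 0.07, -0.13 and 0.24 at 24 months, against -0.15, 0.15 and 0.01 at 6 months, and the ages overlapped.

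Further genes of the lobule's ends came from lists chosen with earlier results of these data known. Of 20 other periportal genes, 18 were measured, and limma called none in liver, with 2 at an unadjusted p under 0.05, where the background was 32.8%. Their median difference was -0.05, against 0.03 for all genes, and 17 of the 18 lay in classes 8 to 10, where the median gene differed by -0.14, -0.14 and -0.08. Pigr, which carries immunoglobulin A into bile, averaged 12.42 ± 0.05 at 24 months and 12.15 ± 0.10 at 6 months (difference 0.28, adjusted p = 0.0745). Etnppl, an enzyme of phosphoethanolamine breakdown, differed by -0.30 (adjusted p = 0.14). Cps1, which feeds ammonia into the urea cycle, differed by -0.13 (adjusted p = 0.275). The arrays of the ages did not overlap for 1 gene that was higher (Pigr) and 1 that was lower (Cps1), where the backgrounds were 18.7% and 17.4% of all genes.

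Of 27 other pericentral genes, 25 were measured, and limma called none. An unadjusted p under 0.05 was found for 7, where the background was 32.8%. Their median difference was 0.15, against 0.03 for all genes, and 22 of the 25 lay in classes 8 to 10, where the median gene differed by -0.14, -0.14 and -0.08. Ahr, the aryl hydrocarbon receptor, averaged 9.88 ± 0.16 at 24 months and 9.30 ± 0.12 at 6 months (difference 0.58, adjusted p = 0.0543). Lect2, a secreted protein, differed by 0.41 (adjusted p = 0.0561), and Cyp2c37, a cytochrome P450 whose close relatives may share its probes, by 0.46 (adjusted p = 0.0611). All 3 were higher on every 24-month array than on any 6-month array, as were Nr1i3 (0.31) and Nkd1 (0.14), which were named after their values were seen. Axin2 and Tbx3, which were also named after their values were seen, differed in the other direction. Axin2 stood at 7.21, 7.17 and 7.11 at 24 months, against 7.40, 7.43 and 7.43 at 6 months (difference -0.26, adjusted p = 0.0693). Tbx3 stood at 8.92, 9.04 and 8.88 at 24 months, against 9.24, 9.26 and 9.15 at 6 months (difference -0.27, adjusted p = 0.0742). Both had ages that did not overlap, and neither passed the threshold. The list thus held 5 genes higher without overlap and 2 lower, where the backgrounds were 18.7% and 17.4%.

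The Wnt signal that sets the pericentral programme was described by 16 genes, all measured, of which limma called none in liver. An unadjusted p under 0.05 was found for 1, where the background was 32.8%. Their median difference was -0.11, against 0.03 for all genes, and 13 had a lower mean at 24 months and 3 a higher one. The ages did not overlap for 1 gene that was higher and 2 that were lower, where the backgrounds were 18.7% and 17.4%. Of the 16, 8 lay in classes 8 to 10, where the median gene differed by -0.14, -0.14 and -0.08. Wnt9b, a ligand of central vein endothelium, averaged 6.99 ± 0.15 at 24 months and 6.66 ± 0.13 at 6 months (difference 0.33, adjusted p = 0.0784). Dkk3, a Dickkopf family protein, differed by 0.30 (adjusted p = 0.164), and the TCF gene Tcf7l2 by -0.17 (adjusted p = 0.176). Rspo3, which is the R-spondin made by central vein endothelium and binds Lgr5, differed by -0.17 and was named after its value was seen. Of 4 midlobular genes limma called none, with 2 at an unadjusted p under 0.05, where the background was 32.8%. Hamp2, a hepcidin gene, differed by 0.45 (adjusted p = 0.0571), the bile acid enzyme gene Cyp8b1 by -0.19 (adjusted p = 0.134) and Hamp by 0.05 (adjusted p = 0.666).

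**Figure D2:**
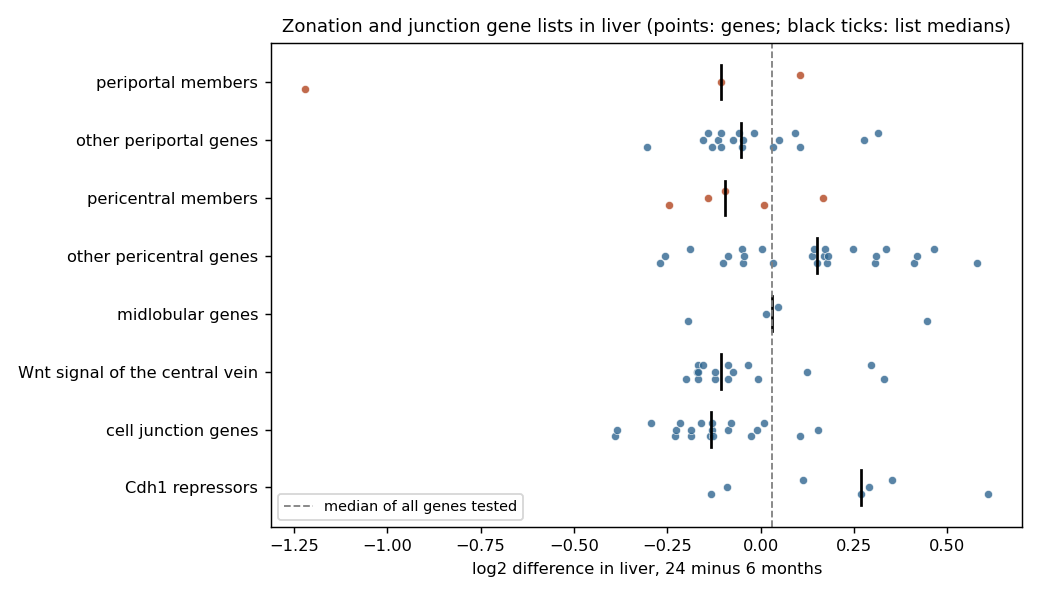
Log2 difference between 24 and 6 months in liver for each measured gene of 8 lists, with the list median as a black tick and the median of all genes (0.03) as a dashed line. Cdh1, at -1.22, lies below every other gene shown, and the list medians run from -0.13 for cell junction genes to 0.27 for Cdh1 repressors.

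Cdh1 was next set beside the other genes of cell junctions. Of 21 such genes 20 were measured in liver, 17 had a lower mean at 24 months, and the median difference was -0.13, against 0.03 for all genes. Limma called none, with 7 at an unadjusted p under 0.05, where the background was 32.8%. Nectin2, an adhesion protein of adherens junctions, stood at 7.63, 7.66 and 7.79 at 24 months, against 8.05, 8.09 and 8.11 at 6 months (difference -0.39, adjusted p = 0.0543). The tight junction gene Cldn1 stood at 10.76, 10.68 and 10.62 at 24 months, against 11.01, 11.12 and 11.08 at 6 months (difference -0.38, adjusted p = 0.0543). Tjp1, which encodes the scaffold protein ZO-1, differed by -0.29 (adjusted p = 0.071). For 9 of the 20 genes every 24-month array lay below every 6-month array, where the background was 17.4%, and for none did it lie above. The list's genes lay at high levels, with 19 of 20 in classes 8 to 10, whose medians are given above. Cdh2, which encodes the N-cadherin that hepatocytes also carry, differed by 0.15 (adjusted p = 0.251) with overlapping ages and was named after its value was seen.

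Among 7 genes whose products repress Cdh1 transcription, limma called none, with 4 at an unadjusted p under 0.05, where the background was 32.8%. The median difference was 0.27, against 0.03 for all genes. Snai2, the zinc finger repressor Slug, stood at 8.20, 8.67 and 8.23 at 24 months, against 7.66, 7.72 and 7.89 at 6 months (difference 0.61, adjusted p = 0.0543), and its ages did not overlap. Twist2 differed by 0.29 (adjusted p = 0.12) and Snai1 by 0.27 (adjusted p = 0.124). The ages did not overlap for 3 of the 7 genes, all higher, where the background was 18.7%: Snai2, Twist2 and Twist1, the last of which was named after its value was seen. Twist1 and Twist2 lay in classes 4 and 5, where the median gene differed by 0.18 and 0.15, and Snai2 lay in class 8, where it differed by -0.14. Zeb1 and Zeb2, named after their values were seen, differed by -0.13 and -0.09.

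Values for other cell types stand beside Cdh1 because bulk liver holds more than hepatocytes, and fewer cells of a type cannot be told apart from less RNA per cell in it. Of 11 markers of cholangiocytes, the bile duct cells that also carry E-cadherin, 8 were measured and limma called none, with none at an unadjusted p under 0.05. Their mean level lay between 6.03 and 6.16 on the 24-month arrays and between 6.03 and 6.06 on the 6-month arrays. Of the 8, 4 had a higher mean at 24 months and 4 a lower one, with a median difference of 0.03. The 3 of smallest p were all higher: Cldn4 by 0.26 (adjusted p = 0.165), Krt19 by 0.21 (adjusted p = 0.205) and Cldn7 by 0.18 (adjusted p = 0.356). At each age 6 of the 8 markers lay below the array median on every array. Epcam, Krt19, Cldn7, Cftr and Prom1 did so at both ages, Krt7 at 24 months and Cldn4 at 6 months. Of 15 exocrine pancreas markers 12 were measured, and their mean was 9.20 in 24-month replicate 2, between 6.02 and 6.33 on the other 24-month arrays and between 5.92 and 6.08 at 6 months. Limma called none of the 12, with 2 at an unadjusted p under 0.05, where the background was 32.8%. The 3 of smallest p were Try4 (0.33), Cela1 (0.73) and Cela2a (0.99). Without that array the Cdh1 difference was -1.17, and the array of highest Cdh1 at 24 months was replicate 1.

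None of 9 liver endothelial markers was called by limma, and none had an unadjusted p under 0.05, where the background was 32.8%. All 9 had a lower mean at 24 months, with a median difference of -0.11. Of the 9, 8 lay in classes 8 to 10, where the median gene differed by -0.14, -0.14 and -0.08. Gpr182 differed by -0.21, Lyve1 by -0.40 and Dnase1l3 by -0.17, and the mean of the 9 lay between 8.88 and 9.08 at 24 months and between 9.01 and 9.18 at 6 months. Of 7 stellate cell markers none was called and 1 had an unadjusted p under 0.05, namely the collagen gene Col1a1 (0.39, adjusted p = 0.0584), with Hgf at -0.21 and Dcn at 0.14. The stellate mean lay between 8.43 and 8.66 at 24 months and between 8.37 and 8.54 at 6 months. Of 6 Kupffer cell markers none was called and 1 had an unadjusted p under 0.05, namely Marco (0.60, adjusted p = 0.122), with Cd5l at 0.21 and Clec4f at 0.14. Their mean lay between 7.77 and 8.35 at 24 months and between 7.87 and 7.94 at 6 months. The part of these cell types in the Cdh1 values was not tested.

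The genes whose liver pattern was most like that of Cdh1 were found by Pearson's r over the 6 liver arrays, among 9941 genes at or above the liver median. The highest r belonged to the complement gene C8a (0.998), the endoplasmic reticulum chaperone gene Hyou1 (0.995), the complex I subunit gene Ndufa8 (0.995), Klhdc10 (0.994) and the inhibin subunit gene Inhbe (0.994). Their age differences, from -0.46 for Hyou1 to -0.16 for Ndufa8, were smaller than that of Cdh1. The lowest r belonged to Zfp251 (-0.987), Echdc3 (-0.985), Gnptg (-0.983), the glutathione transferase gene Gstt1 (-0.983) and Dgat2 (-0.98), which encodes an enzyme of triglyceride synthesis. With only 6 arrays of 2 ages, 5.8% of the genes reached an r of 0.9 or more, so these names describe the arrays. The other zonation genes ran from -0.708 for Pck1 to 0.708 for Hal, with Lgr5 at 0.693 and Slc1a2 at -0.626.

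The age difference of the same genes was tested in the other tissues, which were not used to choose them. None of the 8 measured genes passed in quadriceps, and none of the 6 measured in heart or in gastrocnemius (limma, adjusted over all genes), where the backgrounds were 0.00502%, 0.00665% and 0.00998%. None of them had an unadjusted p under 0.05 in any of the 3 tissues, where the backgrounds were 7.06%, 5.99% and 16.5%. Many were dim there: 5 of 8 in quadriceps, 3 of 6 in heart and 3 of 6 in gastrocnemius lay below the array median on every array. For those genes a difference may not have been measurable. The arrays of the ages overlapped for every measured gene in all 3 tissues, where 12%, 3.29% and 8.65% of all genes had ages that did not overlap.

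Cdh1 in quadriceps stood at 5.34, 5.51 and 5.41 at 24 months, against 5.36, 5.46 and 5.37 at 6 months. The difference was 0.02 (95% interval -0.14 to 0.19, adjusted p = 0.965). In heart Cdh1 stood at 5.39, 5.34, 5.24 and 5.11 at 24 months, against 5.20, 5.27, 5.32 and 5.30 at 6 months. The heart arrays of the ages overlapped, with a difference of -0.00 (95% interval -0.15 to 0.14, adjusted p = 0.996). In gastrocnemius Cdh1 stood at 5.19, 5.12, 5.09 and 5.15 at 24 months, against 5.17, 5.20, 5.07 and 5.26 at 6 months. Its difference there was -0.04 (95% interval -0.16 to 0.08, adjusted p = 0.763). Cdh1 lay below the array median on all 6 quadriceps arrays, on 5 of 8 heart arrays and on 0 of 8 gastrocnemius arrays. In heart it ran from 5.11 to 5.39, where the array medians ran from 5.27 to 5.35. In gastrocnemius it ran from 5.07 to 5.26, where they ran from 4.88 to 4.97. Its signal was thus below or close to the array median in all 3 tissues, and a difference there may not have been measurable. Whether the liver difference exceeds those of the other tissues was not tested, because the liver contrast chose Cdh1.

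**Figure D3:**
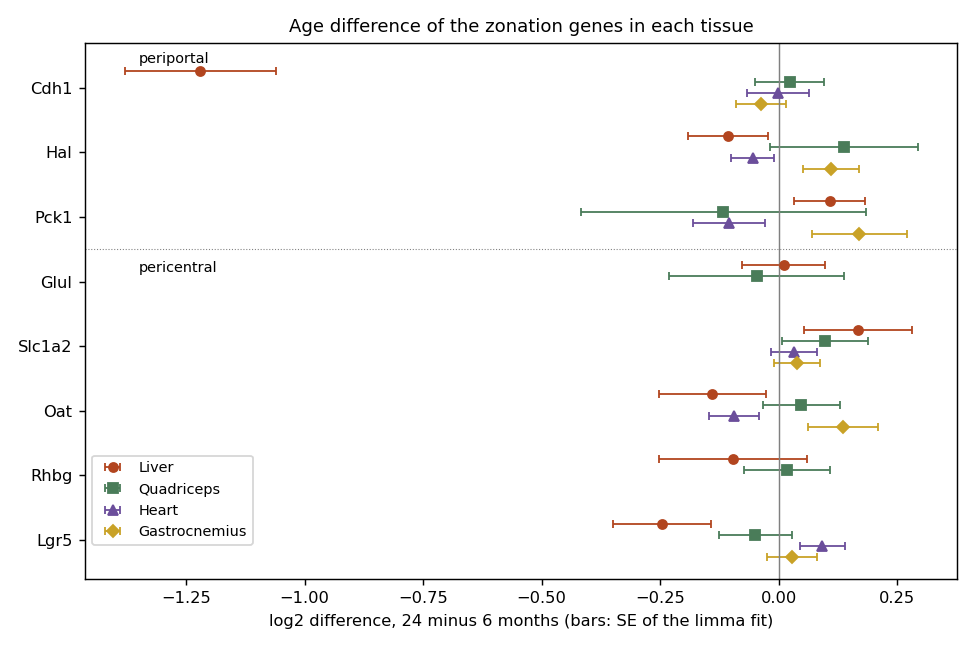
Log2 difference between 24 and 6 months for each measured zonation gene in liver, quadriceps, heart and gastrocnemius, with the SE of the limma fit as bars (n = 3 per age in liver and quadriceps, 4 in heart and gastrocnemius). Glul and Rhbg have no values in heart and gastrocnemius. Cdh1 in liver lies at -1.22, and all other points lie between -0.25 and 0.17.

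Glul, Oat and Pck1 lay above the array median on every quadriceps array, as did Oat and Pck1 on every heart and gastrocnemius array. Glul, which in muscle makes glutamine for export, stood at 11.95, 11.48 and 11.26 in 24-month quadriceps, against 11.32, 11.83 and 11.68 at 6 months (difference -0.05, 95% interval -0.47 to 0.38, adjusted p = 0.971). Its second probe set differed by -0.07. Oat stood at 9.87, 10.09, 9.93 and 10.14 in 24-month gastrocnemius, against 9.93, 9.87, 9.74 and 9.95 at 6 months (difference 0.14, 95% interval -0.03 to 0.30, adjusted p = 0.394). Oat differed by 0.05 in quadriceps (95% interval -0.14 to 0.23) and by -0.10 in heart (95% interval -0.21 to 0.02). Pck1 was the most variable gene in quadriceps, at 8.0, 7.42 and 7.92 at 24 months, against 8.07, 8.46 and 7.16 at 6 months (difference -0.12, 95% interval -0.80 to 0.57). In gastrocnemius Pck1 differed by 0.17 (95% interval -0.06 to 0.40, adjusted p = 0.428) and in heart by -0.10 (95% interval -0.27 to 0.06). For the remaining genes (Hal, Slc1a2, Rhbg and Lgr5) the differences in these 3 tissues ran from -0.06 for Hal in heart to 0.14 for Hal in quadriceps. Hal in quadriceps stood at 6.30, 5.69 and 5.70 at 24 months, against 5.66, 5.82 and 5.80 at 6 months, and its highest array was replicate 1, the one with the most hepatocyte marker signal. Without that array the Hal difference was -0.065, and the part of the hepatocyte signal in the Hal value was not tested.

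The level of each gene in liver was then set against quadriceps, over both ages and within the one table. All 8 genes were higher in liver (limma, adjusted over all genes), where 47.7% of all genes were called higher and 29.5% lower. Most of the genes are known as liver genes. The split of all calls was 9498 higher and 5888 lower, and 7290 higher and 8116 lower with quantile normalization, and the median gene differed by 0.13 in the deposited values and by -0.03 with it. Hal averaged 12.50 ± 0.10 in liver and 5.83 ± 0.24 in quadriceps (SD, n = 6 each, difference 6.67, SE 0.10, adjusted p = 1.39e-16). Pck1 differed by 5.31 (39.6-fold) and Oat by 1.77 (3.42-fold). The log2 difference was 4.04 for Slc1a2, 2.63 for Cdh1, 2.45 for Lgr5 and 1.08 for Rhbg.

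Cdh1 averaged 8.03 ± 0.71 in liver and 5.41 ± 0.07 in quadriceps (adjusted p = 4.82e-12), and its order of levels was 6-month liver, 24-month liver and then both quadriceps groups, between which the test above found no difference past the threshold. For 5 of the 8 genes (Cdh1, Hal, Slc1a2, Rhbg and Lgr5) all quadriceps arrays lay below their array median. The log2 differences given for these genes, and the place of quadriceps in the Cdh1 order, thus rest on weak muscle signal that may be background. The size of these differences is therefore uncertain, and no fold between the tissues is given for them. Glul was the exception to the liver bias: it stood at 11.96 ± 0.08 in liver and 11.59 ± 0.28 in quadriceps (difference 0.37, adjusted p = 0.00799), the arrays of the tissues overlapped, and it did not pass after quantile normalization (0.03, adjusted p = 0.79) or median centring (0.22, adjusted p = 0.0818). For the other 7 genes every liver array lay above every quadriceps array, where the background was 34.7%.

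**Figure D4:**
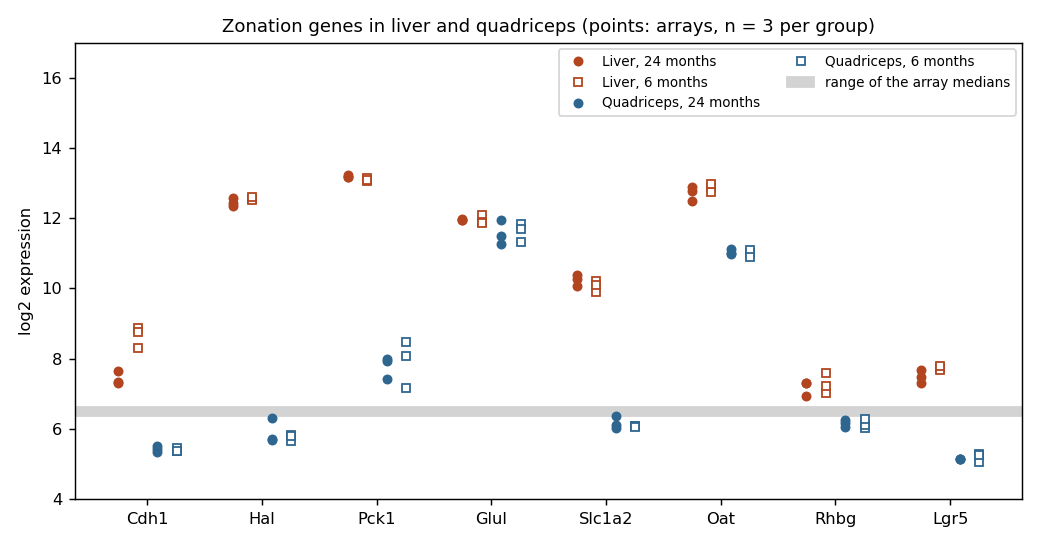
Log2 expression of the 8 measured zonation genes in liver and quadriceps arrays at 24 and 6 months (n = 3 per group), with the range of the array medians as a grey band. Hal is at least 12.34 in liver and at most 6.30 in quadriceps, whereas Glul lies between 11.26 and 12.10 in both tissues.

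Between heart and gastrocnemius the deposited values of most genes were higher in heart (20026 higher and 4864 lower calls, 66.6% and 16.2% of all genes, median difference 0.27), and quantile normalization turned this to 9096 higher and 12692 lower, with a median of -0.05. Oat and Pck1 were among the genes called lower in heart in the deposited values. Oat averaged 9.50 ± 0.08 in heart and 9.94 ± 0.13 in gastrocnemius (SD, n = 8 each, difference -0.44, adjusted p = 1.75e-07). Pck1 averaged 5.85 ± 0.12 in heart and 6.28 ± 0.18 in gastrocnemius (difference -0.43, adjusted p = 1.50e-05). Slc1a2 was higher in heart (0.62, adjusted p = 1.76e-11) but lay below the array median on all 16 arrays. Cdh1 differed by 0.12 (adjusted p = 0.018), less than the median gene, and was lower in heart after quantile normalization (-0.27) and median centring (-0.28). Hal and Lgr5 differed by 0.41 and 0.42 in the deposited values, and by 0.00 and 0.01 after quantile normalization, where neither passed.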

How the data were processed

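The authors deposited 2 tables of log2 expression values, 1 for each Affymetrix array type, with no missing value. Per the submitters' processing notes the tool was RMA; the version, and which arrays were normalized together, are not given in the sources used here, and normalization between arrays can remove a shift common to most genes. Symbols came from the platform annotation, updated through RefSeq (GRCm38.p6) for 23 and 1135 probe sets; probe sets with several symbols or none were left out, and each gene was read from its probe set of highest mean. In R 4.3.3, limma 3.58.1 (lmFit, eBayes, two-sided) was fitted per tissue, 24 minus 6 months, and per pair of tissues of a table, with age and its interaction with tissue as covariates; p-values were adjusted over all genes (Benjamini-Hochberg, threshold 0.05). The fits were tested on simulated data. Members, lists and tests were chosen with earlier results of these data known. The text names the members, from each list the 3 genes of smallest p in liver and any past the threshold, and the 5 genes most like and most opposed to Cdh1; others are marked as named after their values were seen. Alternatives were quantile normalization, median centring, leaving out dim genes, testing every probe set, an intensity trend with a robust prior, the replicate number as a block and leaving out each array. Listed genes with no probe set of their own were not analysed here. The files give no counts, so depth does not apply, and precision is set by how many arrays each group has. Sequences are RefSeq's.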

Additional observations from a re-analysis of the deposited data

Results flagged for a closer look

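Hal in heart was 4.90 in replicate 4 of the 24-month group, while its other 3 arrays read at least 5.0, a gap that is large for the range of the group. Pck1 in gastrocnemius was 5.99 in replicate 3 of the 6-month group, while its other 3 arrays ran between 6.24 and 6.29. These were 2 of 24 groups of 4 arrays examined, and chance alone marks about 1 in 20 such groups.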

How the results depend on the processing

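The liver difference of Cdh1 was -1.12 with quantile normalization and -1.33 with median centring. The balance of periportal over pericentral genes was -0.33 with quantile normalization and 0.06 without Cdh1. The count of liver calls over all genes was 65 and moved to 8 with quantile normalization, 2870 with median centring (355 higher and 2515 lower, against 28 and 37), 1764 without dim genes, 0 with every probe set tested (7061 at an unadjusted p under 0.05), 2243 with a trend and robust prior, and between 0 and 5073 with an array left out, the highest when 24-month replicate 3 was dropped and 0 when either 6-month replicate 2 or 6-month replicate 3 was. In quadriceps the count of 1 became 9 without dim genes and 18 with a trend prior, and was 0 whichever array was left out. In heart the count of 2 became 4 with quantile normalization, 1 with centring, 21 without dim genes and 14 with a trend prior, and lay between 0 and 5 with an array left out. In gastrocnemius the count of 3 became 1 with centring, 81 without dim genes and 9 with a trend prior, and lay between 0 and 70. Without dim genes, 9965 of 11425 genes tested were called for liver against quadriceps and 14134 of 16298 for heart against gastrocnemius. In the main fits 15386 of 19928 and 24890 of 30063 were called. Cdh1 in heart against gastrocnemius turned to -0.27 with quantile normalization and -0.28 with centring. Across 232 refits of single members' age differences in quadriceps, heart and gastrocnemius none passed, with a smallest adjusted p of 0.125, and 18 changed sign. Same-numbered arrays did not all deviate together in any tissue (r between -0.22 and 0.30, and over 0.1 for 3 of 4 numbers in gastrocnemius), so the numbers were not taken as pairs; with the replicate number as a block the counts of calls were 0 in liver, quadriceps, heart and gastrocnemius, with 6577, 1421, 1552 and 5718 genes at an unadjusted p under 0.05. The causes of these changes were not tested.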

Other observations

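The mice were fasted, and 9 of 10 genes of the fasting response were measured in liver. Limma called none, and none had an unadjusted p under 0.05, where the background was 32.8%. The median difference was -0.06, against 0.03 for all genes. Of the 9, 8 lay in classes 8 to 10, where the median gene differed by -0.14, -0.14 and -0.08. Creb3l3, a transcription factor gene active in fasting, differed by -0.14 (adjusted p = 0.23), the hormone gene Fgf21 by -0.26 (adjusted p = 0.266) and Cpt1a, which admits fatty acids to mitochondria, by -0.11 (adjusted p = 0.346). Of 10 genes of the feeding response 9 were measured, with none called, 3 at an unadjusted p under 0.05 and a median difference of 0.07. Of these 9, 7 lay in classes 8 to 10. Pnpla3, a lipid droplet gene driven by feeding, averaged 7.09 ± 0.23 at 24 months and 6.53 ± 0.02 at 6 months (difference 0.57, adjusted p = 0.0543), and its regulator Srebf1 differed by 0.43 (adjusted p = 0.0769), and both were higher without overlap of the ages, where the background was 18.7%. Elovl6, a fatty acid elongase gene, differed by -0.36 (adjusted p = 0.113) and was lower without overlap, where the background was 17.4%.

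Markers of muscle were also read in liver. Of 4 skeletal muscle markers none was called and 3 had an unadjusted p under 0.05, where the background was 32.8%, with Acta1 at 0.32 (adjusted p = 0.0616), Ckm at 0.34 (adjusted p = 0.0699) and Mylpf at 0.29 (adjusted p = 0.0787), all higher on every 24-month array, where the background was 18.7%. The 4 markers lay in classes 2, 5 and 6, where the median gene differed by 0.14, 0.15 and 0.02. Of 4 heart markers none was called and 1 had an unadjusted p under 0.05, with Ryr2 at 0.33, Tnni3 at 0.28 and Myh6 at 0.12. Of 5 measured hepatocyte markers none was called and none had an unadjusted p under 0.05, with Hnf4a at 0.17, Tat at 0.05 and Apoa1 at -0.03.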
